A study of Mus musculus with 9 samples.

Results

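A group of 100 genes had their highest signal at 7 days among 3 ages of the mouse heart, out of 19938 genes measured with a feature of 1 gene symbol. A gene belonged to the group if its mean log2 signal at 7 days lay at least 0.5 above the mean at 24 hours and at least 0.5 above the mean at 10 weeks. Its 7-day mean also had to be at least 6, and its lowest 7-day array had to lie above the highest of the 6 other arrays. In all 110 genes met these demands, and the 10 whose symbols start with Col, Mfap, Lox, Bmp, Kif, Slc, Itg, Adam or Mmp were left out. The RNA was from heart muscle of the inbred mouse strain C57BL/6 at 24 hours, 7 days or 10 weeks of age. Each age was read on 3 Affymetrix Mouse Gene 1.0 ST arrays, which measure a gene with a set of short probes. No treatment or genetic change is given in the labels for any age, and they do not say whether an array holds 1 animal or several. The p-values below therefore measure only the spread between these samples, which may be technical.

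Between birth and adulthood the mouse heart passes from growth by cell division to growth by cell enlargement. In the days after birth heart muscle cells make a last round of DNA synthesis, often without cell division, and most then leave the cell cycle. Fibroblasts, the cells that make the collagen and elastic scaffold, spread through the wall in the same days, and the capillary bed grows with the muscle. In RNA from whole tissue, fewer cells of a type and less RNA per cell cannot be told apart. Only 3 ages were sampled, so a peak here means the highest of these 3.

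Genes that define heart muscle were high on every array. The cardiac myosin gene Myh6 measured 12.75 to 12.80 at 24 hours, 12.64 to 12.76 at 7 days and 12.62 to 12.66 at 10 weeks (log2 signal), and the skeletal muscle myosin gene Myh4 lay at or below 3.80 on all 9 arrays. The medians of the arrays over all tested genes ran from 5.505 to 5.58. Genes of other tissues were uneven between arrays. On 7-day replicates 1, 2 and 3 the fat hormone gene Adipoq measured 3.91, 7.71 and 5.33, the liver gene Alb 3.89, 7.81 and 3.77 and the airway gene Scgb1a1 2.49, 6.83 and 2.62. At 24 hours Alb measured 5.27, 4.16 and 6.04 and Scgb1a1 5.83, 2.58 and 2.49. Myl7, a light chain of atrial myosin, differed between the adult arrays (4.70, 8.43 and 7.52). Results that rest on 7-day replicates 2 and 3 are given below with and without them.

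Because these genes were chosen by their 7-day values, the differences between 7 days and the other ages are a description and were not used as a test. The 7-day mean lay 0.50 to 4.09 above the 24-hour mean with a median of 0.71, and 0.50 to 4.39 above the 10-week mean with a median of 1.21. For 17 of the 100 both differences were at least 1, a factor of 2. The smaller of the 2 differences, called the peak height here, had a median of 0.70. In limma's fit across all genes 85 of the 100 passed an adjusted p of 0.05 as higher at 7 days than at 24 hours and 0 as lower, against 5.27% and 4.81% of all genes. As lower at 10 weeks than at 7 days 97 passed and as higher 0, against 18.9% and 17% of all genes. Both comparisons share the 7-day arrays and were used by the rule, so nothing is read from these counts.

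**Figure D1:**
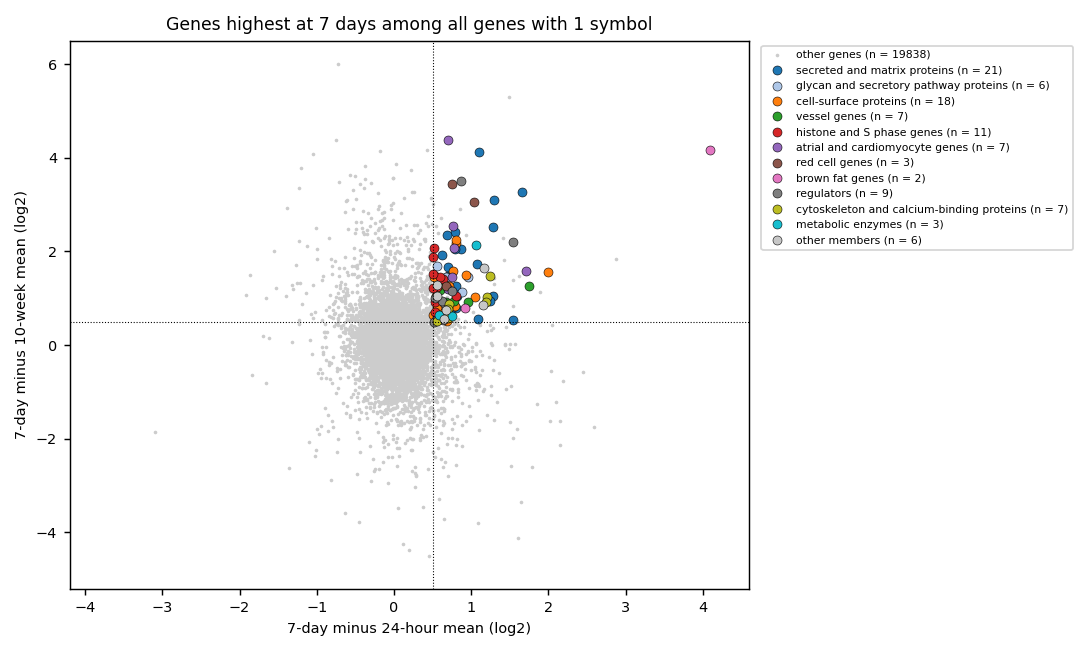
Difference of the 7-day mean from the 24-hour mean (horizontal, log2) and from the 10-week mean (vertical, log2) for 19838 other genes (grey) and the 100 members (coloured by the kind of protein). Dotted lines mark the demanded margin of 0.5; Ucp1 stands alone at the right at 4.09 and 4.18, and the members' medians are 0.71 and 1.21.

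Several members and other genes lay close to the limits. Gas1, which encodes a growth arrest protein of the cell surface, lay 0.502 above its 24-hour mean, while Rnf144a and Emp3, with 0.494 each, were outside. Zeb2, a transcription factor of mesenchymal cells, lay 0.50 above its 10-week mean, and Rab23 with 0.493 was outside. Only 9 genes met all demands but the one against overlap, among them the histone gene H2bc3, whose lowest 7-day array (7.193) fell just under its highest other array (7.208). By contrast 233 genes missed the margin over 24 hours alone and 38 missed the margin over 10 weeks alone.

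Sorted by the kind of protein, the members held 21 secreted and matrix proteins, 6 proteins of glycan assembly and the secretory pathway, 18 cell-surface proteins, 7 genes of vessels, 11 of histones and S phase, 7 of atrial and other heart muscle cells, 3 of red cells and 2 of brown fat. A further 9 were regulators, 7 belonged to the cytoskeleton or bound calcium, 3 were metabolic enzymes and 6 were of other kinds. This sorting was made after the values were seen. Of the members 99 are protein-coding and 1 is a long non-coding RNA.

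The 10-week arrays were compared with the 24-hour arrays by limma. The rule did not set this difference, but it used the means of both ages, so the comparison is not independent of how the genes were chosen. The margin over 24 hours was the smaller one for 74 of the 100, and more genes missed that margin alone (233) than the one over 10 weeks (38). The share over all genes is therefore no measure of what members would show without a change, and the counts are a description. In limma's fit 53 of 100 were lower at 10 weeks (20.6% of all genes were) and 6 were higher (19.5% of all genes were). The median difference of the members was -0.43, beside 0.04 over all genes tested. Kcne1, a regulatory subunit of the slow potassium channel of heart muscle, had the deepest fall, from 8.45, 8.72 and 8.74 at 24 hours to 4.28, 5.79 and 4.78 at 10 weeks (difference -3.69 ± 0.30 SE, adjusted p = 3.78e-06). All 3 adult arrays lay under all newborn ones, with replicate 1 lowest and replicate 2 highest, the order that the atrial genes Myl7 and Myl4 also had on these arrays. The atrial genes Nppa, Bmp10 and Dkk3 did not have that order. Eln, which encodes elastin, differed by -3.03, Alas2, the enzyme gene of red cell haem synthesis, by -2.69, and Nrep, a neuronal regeneration-related gene, by -2.63. Without 24-hour replicate 1 or without 24-hour replicate 2 the count of lower genes was 45, and under every alternative tried 45 of the 53 passed.

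The 6 genes that stayed above the newborn level were Podn, Wfdc1, Sema3c, Fap, 4631405J19Rik and Dpt. Podn, a small proteoglycan of the matrix, measured 5.87, 5.65 and 5.44 at 24 hours, 6.90, 7.70 and 6.98 at 7 days and 6.52, 6.82 and 6.62 at 10 weeks. Its adult arrays lay close under the 7-day ones and all above the newborn ones (difference 1.00 ± 0.19 SE, adjusted p = 0.00177). Wfdc1, a secreted protein with a protease inhibitor fold, measured 6.53, 6.76 and 6.88 at 24 hours, 7.95, 7.75 and 7.74 at 7 days and 7.44, 7.12 and 7.22 at 10 weeks (difference 0.54 ± 0.11 SE, adjusted p = 0.00231). Fap, Wfdc1 and Podn passed under every alternative. Leaving out 24-hour replicate 2 brought the count from 6 to 3: Sema3c then had an adjusted p of 0.0637, Dpt of 0.0535 and 4631405J19Rik of 0.129. Sema3c also missed without 24-hour replicate 3 (adjusted p = 0.0548), and 4631405J19Rik missed without 10-week replicate 1 (0.0843), without 10-week replicate 2 (0.117) and without 7-day replicate 3 (0.0505).

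The other 41 members did not differ detectably between 24 hours and 10 weeks. Bcl6b, a transcriptional repressor of endothelial cells, showed the closest return, with 7.44, 7.34 and 7.60 at 24 hours, 8.21, 7.98 and 8.15 at 7 days and 7.49, 7.46 and 7.45 at 10 weeks (difference 0.00 ± 0.08 SE, adjusted p = 0.99). A p above the threshold does not show that the levels were equal.

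**Figure D2:**
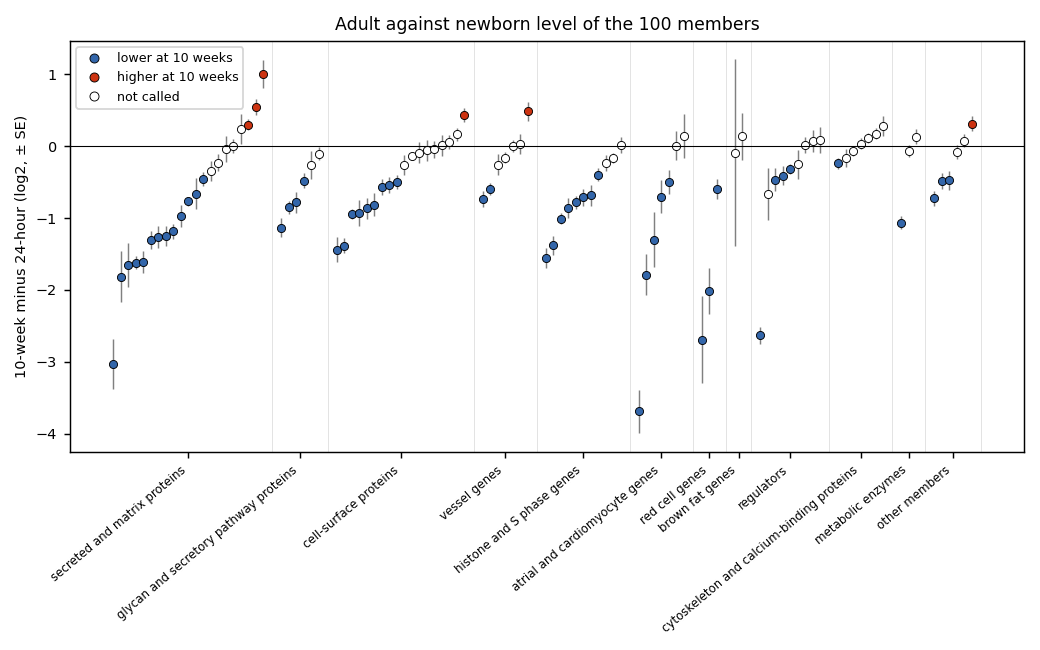
Difference between the 10-week and the 24-hour mean (log2, ± SE of limma's fit, 3 arrays per age) for each of the 100 members, grouped by the kind of protein. Filled blue points passed as lower (53), red ones as higher (6) and open ones did not pass (41); Kcne1 lies lowest at -3.69 and Podn highest at 1.00.

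The 21 secreted and matrix proteins were led by Ccn3, a matricellular protein that binds growth factors and integrins (probe set 10424119). Its signals were 7.51, 7.39 and 7.17 at 24 hours, 8.72, 9.11 and 9.23 at 7 days and 5.49, 5.81 and 5.92 at 10 weeks. Each 7-day array lay more than 1 log2 unit above every newborn and adult array, and the adult level was under the newborn one (difference -1.61 ± 0.15 SE, adjusted p = 9.48e-06). Cthrc1, a secreted protein that limits collagen deposition, measured 6.63, 6.52 and 6.22 at 24 hours, 7.64, 8.0 and 7.56 at 7 days and 5.27, 5.29 and 5.05 at 10 weeks. It had the same order of ages, with the adult below the newborn (difference -1.25 ± 0.13 SE, adjusted p = 2.67e-05). Dpt, which encodes dermatopontin, a matrix protein that binds decorin, measured 9.63, 9.34 and 9.48 at 24 hours, 10.61, 10.84 and 10.73 at 7 days and 9.73, 9.81 and 9.80 at 10 weeks. Its adult arrays all stood slightly above the newborn ones (difference 0.30 ± 0.08 SE, adjusted p = 0.0122).

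Of the other secreted and matrix members, the 8 described next were all lower in the adult than in the newborn. The elastin gene Eln measured 9.52, 9.65 and 8.95 at 24 hours, 9.70, 11.44 and 10.28 at 7 days and 6.34, 6.39 and 6.30 at 10 weeks. Its 7-day arrays were spread over 1.74 log2 units, with replicate 1 only 0.042 above the highest newborn array, while the adult arrays agreed within 0.1. Aspn, a small leucine-rich proteoglycan, was even across replicates, with 9.77, 9.77 and 9.77 at 24 hours, 10.40, 10.54 and 10.49 at 7 days and 8.92, 9.0 and 9.09 at 10 weeks (difference adult to newborn -0.77 ± 0.06 SE, adjusted p = 1.79e-06). Thbs2, a thrombospondin of the matrix, differed between adult and newborn by -1.30, Fndc1, with fibronectin domains, by -1.18, and Sfrp2, a secreted WNT modulator, by -1.65. Spon2, a secreted spondin, differed by -1.62 and Itih5, which binds hyaluronan, by -1.27, and each passed as lower. Pi15, a secreted protein of the peptidase inhibitor family, measured 6.91, 8.52 and 7.45 at 7 days against 6.88, 6.24 and 5.89 at 24 hours and fell to 4.63, 4.29 and 4.65 at 10 weeks (difference -1.81 ± 0.36 SE, adjusted p = 0.00211). Its replicate 1 at 7 days lay only 0.033 above the highest newborn array.

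Of these 21 genes 13 were lower at 10 weeks than at 24 hours, 3 were higher and 5 did not pass. In the whole group of 100 it was 53, 6 and 41, and of all genes 20.6% were lower and 19.5% higher. The counts of single kinds of protein are a description and were not compared with the rest of the group. Lrrc17, Qpct, Aspn and Pdgfrl belong to the 13. Pdgfrl, a protein like the platelet-derived growth factor receptor, passed narrowly (difference -0.66 ± 0.22 SE, adjusted p = 0.0324). Its p was 0.119 without 24-hour replicate 1, 0.0742 without 24-hour replicate 2, 0.086 without 10-week replicate 1 and 0.124 without 10-week replicate 2. The 5 that did not pass were C1qtnf2, Cpxm1, Matn2, Pamr1 and the carboxypeptidase gene Cpz. Cpz passed without 7-day replicate 1 (adjusted p = 0.0205) and Matn2, a matrilin, without 10-week replicate 3 (0.0397).

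Enzymes that build glycans and the early secretory pathway formed a smaller set of 6. Galnt16, which starts mucin-type sugar chains, measured 6.00, 6.09 and 6.09 at 24 hours, 6.96, 7.25 and 6.86 at 7 days and 5.45, 5.57 and 5.72 at 10 weeks. Kdelr3, the receptor that returns proteins to the endoplasmic reticulum, measured 7.33, 7.22 and 7.23 at 24 hours, 7.62, 7.98 and 7.86 at 7 days and 6.12, 5.85 and 6.41 at 10 weeks. Rcn3, a calcium-binding protein of the same compartment, had 8.85, 9.42 and 8.0 as means at the 3 ages in that order. Adult levels were under newborn ones for Kdelr3 (-1.14 ± 0.13 SE, adjusted p = 4.92e-05), Rcn3 (-0.85), Gpc6, a glypican (-0.78), and Galnt16 (-0.48), while Gxylt2 and Dsel did not pass. With replicate 1 as the only 7-day array, Kdelr3, Rcn3, Gpc6 and Dsel no longer met the rule.

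In a list of 51 measured matrix genes outside the left-out families, 6 were members (Eln, Aspn, Podn, Thbs2, Dpt and Matn2). Over the whole list 21 genes were higher and 2 lower at 7 days than at 24 hours, with a median of 0.33 (5.27% and 4.81% of all genes). From 7 days to 10 weeks 8 were higher and 29 lower, with a median of -0.48 (17% and 18.9% of all genes). Counts of this and the other lists include the members, which were chosen for a high 7-day mean, and are a description. Lum, the lumican gene, missed the margin over 10 weeks (means 8.16, 9.61 and 9.23) and is no member. Of 25 genes of collagen processing only Kdelr3 was a member. At 7 days 6 of them were higher and 2 lower than at 24 hours (5.27% and 4.81% of all genes). From 7 days to 10 weeks 4 were higher and 20 lower (17% and 18.9% of all genes). Pcolce2, the procollagen enhancer gene, went on from 7.77 at 7 days to 8.36 at 10 weeks. Among 28 protease and inhibitor genes 5 were members: Fap, Cpz, Spon2, Cpxm1 and Wfdc1. Of 49 growth factor and WNT signalling genes 1 was a member, Sfrp2. At 7 days 7 were higher and 3 lower than at 24 hours (5.27% and 4.81% of all genes).

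Fap, the membrane serine protease that marks activated fibroblasts (probe set 10483081), had the largest excess over the newborn after Ucp1. It measured 4.89, 4.75 and 4.6 at 24 hours, 6.61, 6.91 and 6.70 at 7 days and 5.19, 5.25 and 5.11 at 10 weeks, a 7-day level 3.99-fold over 24 hours and 2.94-fold over 10 weeks. Its 7-day arrays lay within 0.3 of each other and at least 1.36 above any other array, and the adult stood above the newborn (difference 0.44 ± 0.10 SE, adjusted p = 0.00396). Thy1, a surface glycoprotein of fibroblasts and other cells, measured 6.31, 6.31 and 6.47 at 24 hours, 7.04, 6.86 and 7.27 at 7 days and 6.43, 6.45 and 6.39 at 10 weeks and did not pass between adult and newborn (adjusted p = 0.663). Lepr, the leptin receptor, measured 5.88, 5.76 and 5.88 at 24 hours, 6.77, 6.67 and 6.90 at 7 days and 5.0, 5.34 and 5.49 at 10 weeks, and its adult level was under the newborn one (difference -0.56 ± 0.11 SE, adjusted p = 0.00239). Of 18 fibroblast markers 3 were members (Fap, Dpt and Thy1). Pdgfra, which defines the cells, had means of 8.38, 8.67 and 8.38, and Tcf21, their transcription factor, 7.66, 7.97 and 6.42. The summed linear signal of the 18 markers, members included, ran from 16419 to 17834 at 24 hours, from 19774 to 23195 at 7 days and from 14392 to 16266 at 10 weeks. At 7 days 8 were higher and 2 lower than at 24 hours (5.27% and 4.81% of all genes). Unlike the sum, which bright genes dominate, more markers rose than fell from 24 hours to 10 weeks. Then 10 were higher and 5 lower, with a median of 0.37 (19.5% and 20.6% of all genes). The part of fibroblast content in the values of single members was not tested.

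Of the 18 cell-surface proteins 9 were lower in the adult than in the newborn, 1 was higher and 8 did not pass. This stands beside 53, 6 and 41 of the whole group of 100 (20.6% lower and 19.5% higher of all genes). The largest falls were those of Tmem163, a zinc transporter (-1.44), and Lhfpl2, a tetraspan protein (-1.38). The differences were -0.93 for Aoc3, a vascular amine oxidase, -0.94 for Prrg3 and -0.86 for Neto2. Antxr1, a receptor for collagen, measured 8.14, 8.95 and 8.51 at 7 days and differed by -0.81 between 10 weeks and 24 hours. Gfra2, the neurturin receptor subunit, differed by -0.54 and Gpr153, an orphan receptor, by -0.50. Eda2r, a receptor of the tumour necrosis factor family, measured 5.12, 5.12 and 5.03, then 6.40, 5.84 and 6.17, then 4.93, 5.01 and 5.36 (adjusted p = 0.967 between the outer ages). Pmp22, a membrane protein first known from myelin, had 9.76, 10.55 and 9.72 as means. Lpar1, the receptor for lysophosphatidic acid, Gas1, Anpep, Enpp3 and Tmem45a also did not pass, and Lpar1 passed as higher when quantile normalized (adjusted p = 0.0463). Enpp3 passed without 10-week replicate 3 (-0.09 with all arrays and -0.29 without that one, adjusted p = 0.00908).

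**Figure D3:**
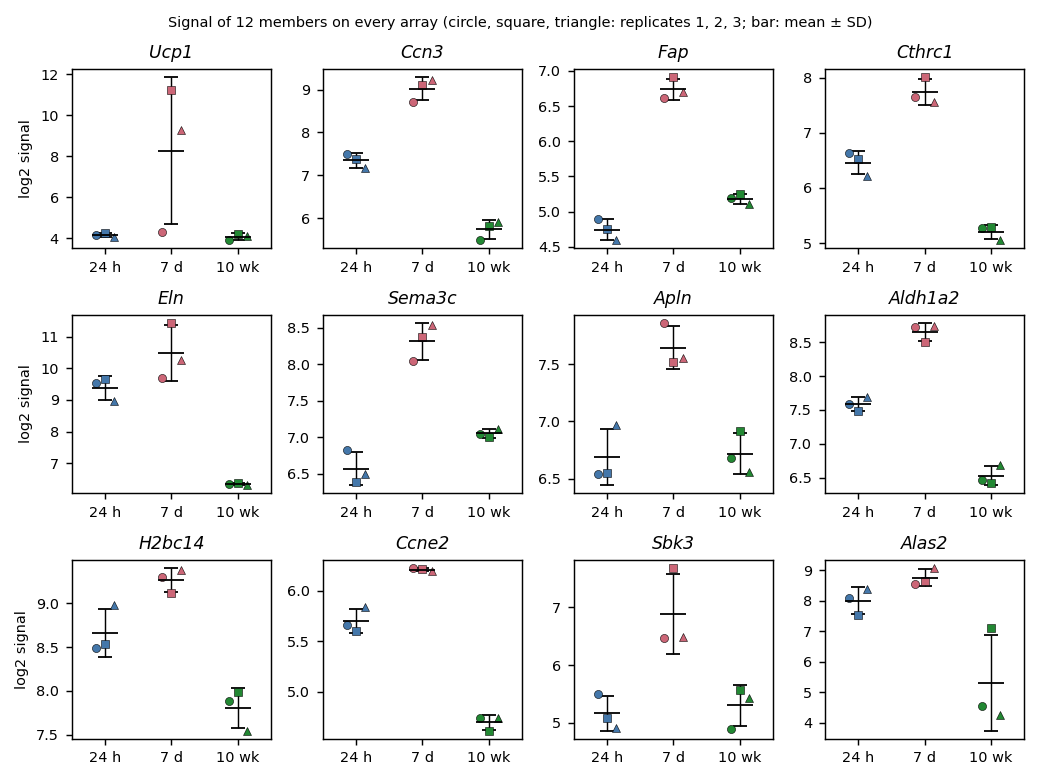
Log2 signal of 12 members on each array at 24 hours, 7 days and 10 weeks (circle, square and triangle are replicates 1, 2 and 3; bars are mean ± SD, n = 3). Each panel has its own vertical scale that does not start at 0. Ccne2 and Fap are tight at 7 days, whereas the 7-day arrays of Ucp1 run from 4.30 to 11.2 and those of Eln from 9.70 to 11.4.

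Among the 7 genes of vessels were a peptide hormone and its receptor. Apln encodes apelin, which is made by the tip cells of growing vessels (probe set 10604375), and measured 6.54, 6.55 and 6.97 at 24 hours, 7.86, 7.52 and 7.55 at 7 days and 6.68, 6.91 and 6.56 at 10 weeks. All 3 arrays at 7 days were above 7.5 and all others under 7, and adult and newborn did not differ detectably (difference 0.03 ± 0.14 SE, adjusted p = 0.872). Aplnr, the apelin receptor, measured 8.30, 7.97 and 8.35 at 24 hours, 8.97, 8.79 and 8.67 at 7 days and 7.34, 7.47 and 7.59 at 10 weeks, and its adult level was below the newborn one (difference -0.74 ± 0.11 SE, adjusted p = 3.58e-04). Sema3c, a secreted semaphorin that guides vessels and nerves, measured 6.82, 6.39 and 6.49 at 24 hours, 8.04, 8.37 and 8.54 at 7 days and 7.04, 7.00 and 7.12 at 10 weeks. It stood at a 3.36-fold level over 24 hours, and in the adult it was above the newborn (0.49 ± 0.13 SE, adjusted p = 0.0143, lost without 24-hour replicate 2 or 3 as given above).

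Cd34, a surface sialomucin of capillary endothelium and of stromal progenitors, measured 10.11, 9.97 and 10.10 at 24 hours, 10.83, 10.79 and 10.91 at 7 days and 9.81, 9.81 and 10.09 at 10 weeks. Its SD over the 7-day arrays was 0.06. Between 24 hours and 10 weeks it did not pass (adjusted p = 0.137), but it did without 10-week replicate 3 (adjusted p = 0.00656). Nes, an intermediate filament gene of dividing and progenitor cells, measured 7.13, 7.18 and 7.19 at 7 days and 5.90 to 6.71 at the other ages. It passed as lower in the adult only without 10-week replicate 2 (adjusted p = 0.0385). Pcdh17, a protocadherin, differed by -0.60 between adult and newborn (adjusted p = 1.82e-04). In a list of 21 endothelial and vessel growth genes Apln and Aplnr were the only members. Of the 21, 10 were higher and 0 lower at 7 days than at 24 hours (5.27% and 4.81% of all genes). Their summed signal, members included, ran from 9178 to 9662 at 24 hours, 11160 to 11350 at 7 days and 10108 to 10359 at 10 weeks. The general endothelial gene Pecam1 had means of 9.65, 9.84 and 9.49.

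The 11 histone and S phase genes held 6 histone genes, which are switched on when DNA is copied. H2bc14 (probe set 10403943) measured 8.49, 8.53 and 8.98 at 24 hours, 9.30, 9.12 and 9.38 at 7 days and 7.89, 7.99 and 7.55 at 10 weeks. H2bc18 measured 7.15, 7.11 and 7.32 at 24 hours, 7.87, 7.65 and 7.96 at 7 days and 6.42, 6.49 and 6.33 at 10 weeks. In both, every adult array lay below every newborn one, while the place of the 7-day arrays above the rest was demanded by the rule. H4c14 was the brightest of them, with 10.03, 10.15 and 10.36 at 24 hours, 10.75, 10.58 and 10.74 at 7 days and 9.56, 9.66 and 9.19 at 10 weeks. H4c3 had 9.36, 8.78 and 8.94 at 7 days against 8.30, 8.38 and 8.71 at 24 hours. H4c6 and H2ac15 kept the same order, with 7-day means of 9.37 and 7.82. Each of the 6 was lower in the adult than in the newborn, from -0.69 for H4c3 (adjusted p = 0.00357) to -1.55 for H2ac15 (adjusted p = 6.51e-06). Histone genes are near-identical in their coding sequence, so these probe sets may share signal and were not counted as independent.

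The 6 fall in the known histone clusters: H2bc14, H2ac15, H4c3 and H4c6 are on chromosome 13 and H2bc18 and H4c14 on chromosome 3 (GRCm38). A list of 30 genes of the replication and linker histone families on the array, the 6 members included, was drawn up after the values were seen. Of these, 9 were higher and 1 lower at 7 days than at 24 hours (5.27% and 4.81% of all genes). From 7 days to 10 weeks 19 were lower and 2 higher (18.9% and 17% of all genes). The 250 bases before the start of 4 of these genes are shown because 6 members are histone genes, whose promoters are known for some of these elements. They come from RefSeq for GRCm38.p6, each 5′ to 3′ on the strand of the gene. Capitals mark the motifs searched on both strands: the CCAAT box (these 5 letters), the octamer ATTTGCAT known from H2b genes, and the GC box GGGCGG. A match on the other strand shows its reverse complement in capitals.
H2bc14 (chr13:21721794-21722043, plus strand): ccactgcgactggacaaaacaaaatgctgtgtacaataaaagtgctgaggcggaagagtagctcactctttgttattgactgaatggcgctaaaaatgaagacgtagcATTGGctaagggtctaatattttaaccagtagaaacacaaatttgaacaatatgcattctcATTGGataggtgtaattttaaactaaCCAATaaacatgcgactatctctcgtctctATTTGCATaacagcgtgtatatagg
H2bc18 (chr3:96269450-96269699, plus strand): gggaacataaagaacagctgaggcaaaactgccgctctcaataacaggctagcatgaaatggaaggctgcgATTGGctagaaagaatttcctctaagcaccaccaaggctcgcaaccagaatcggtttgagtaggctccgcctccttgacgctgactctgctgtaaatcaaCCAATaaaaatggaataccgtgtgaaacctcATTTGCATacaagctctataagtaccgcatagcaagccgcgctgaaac
H2ac15 (chr13:21753913-21754162, minus strand): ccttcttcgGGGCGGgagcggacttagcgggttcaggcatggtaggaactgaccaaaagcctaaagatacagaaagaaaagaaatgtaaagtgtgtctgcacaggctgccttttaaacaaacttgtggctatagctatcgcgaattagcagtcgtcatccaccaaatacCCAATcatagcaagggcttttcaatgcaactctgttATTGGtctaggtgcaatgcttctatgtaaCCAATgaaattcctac
H4c3 (chr13:23698459-23698708, minus strand): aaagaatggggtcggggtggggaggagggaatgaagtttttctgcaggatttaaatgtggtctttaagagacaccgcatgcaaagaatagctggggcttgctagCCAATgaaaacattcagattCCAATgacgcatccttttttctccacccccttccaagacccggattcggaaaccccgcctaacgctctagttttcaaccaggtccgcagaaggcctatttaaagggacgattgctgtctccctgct

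Both H2b promoters hold the octamer, 18 to 25 bases before the start of H2bc14 and 41 to 48 bases before that of H2bc18, and 4 of the 5 histone members with a listed promoter hold the CCAAT box. Among the 63 listed promoters of the histone family, 50 hold the CCAAT box and 13 the octamer. The octamer stands in 1.60% of all 32851 promoters of the same length, the CCAAT box in 33.8% and the GC box in 32.7%. Over the 94 listed promoters of 68 members of the whole group, 5.32% held the octamer, 42.6% the CCAAT box and 59.6% the GC box. The TATA box, searched as TATAAA, was in 10.6% of the members' promoters and 12.4% of all. An element like that of E2F factors (any of TTTCCCGC, TTTCGCGC, TTTGCCGC or TTTGGCGC) was in 5.32% and 1.86%. These matches describe the letters in the window and were not tested as binding sites. Several promoters of 1 gene can overlap, so the shares are over listed starts.

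Beside the histones, the S phase genes were Pola1, Pole4, Ccne2, Zfp367 and Fam111a. Ccne2, the cyclin E2 that drives entry into S phase, measured 5.66, 5.60 and 5.84 at 24 hours, 6.22, 6.21 and 6.19 at 7 days and 4.73, 4.61 and 4.74 at 10 weeks. Its SD over the 7-day arrays was 0.02, and the adult was below the newborn (difference -1.01 ± 0.07 SE, adjusted p = 1.66e-06). Pola1, the catalytic subunit of the polymerase that starts DNA strands, measured 5.84, 5.99 and 6.01 at 24 hours, 6.42, 6.44 and 6.56 at 7 days and 5.64, 5.36 and 5.66 at 10 weeks and was lower in the adult (difference -0.40 ± 0.09 SE, adjusted p = 0.00536). Pole4, a small subunit of the leading-strand polymerase, measured 7.92, 7.95 and 8.19 at 24 hours, 8.56, 8.45 and 8.72 at 7 days and 8.20, 8.09 and 7.81 at 10 weeks and did not pass between adult and newborn (adjusted p = 0.946). Fam111a, a replication-associated protease, had 7.35, 7.09 and 7.35 at 7 days and did not pass either (adjusted p = 0.121).
The promoter of Pola1 is shown because it holds the E2F-like element (TTTGGCGC, read on the other strand) beside GGGCGG and CCAAT, in capitals.
Pola1 (chrX:93632156-93632405, minus strand): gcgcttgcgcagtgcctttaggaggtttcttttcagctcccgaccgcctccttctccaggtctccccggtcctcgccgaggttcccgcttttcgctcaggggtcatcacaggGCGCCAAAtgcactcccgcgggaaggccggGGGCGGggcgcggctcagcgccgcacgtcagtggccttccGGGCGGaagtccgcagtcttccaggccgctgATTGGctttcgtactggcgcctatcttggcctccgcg

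The group holds 0.502% of all genes tested, so a list of this size would hold few or none of them at that share. Of 29 measured genes of DNA replication and S phase 2 were members. Of the 29, 4 were higher and 0 lower at 7 days than at 24 hours (5.27% and 4.81% of all genes). All 29 were lower at 10 weeks than at 7 days (18.9% of all genes). None of 25 mitosis genes was a member, and 0 were higher and 4 lower at 7 days than at 24 hours (5.27% and 4.81% of all genes). The proliferation marker Mki67 had means of 9.36 and 9.35 at the young ages and 5.77 at 10 weeks. Pcna, the sliding clamp, had 9.15, 9.59 and 8.44, and missed the margin of 0.5 over the newborn. The difference between the lists was not tested. The 7-day differences of the histone and S phase members over the newborn were all small, at 0.51 to 0.80, and 6 of the 11 (Pole4, Pola1, H2ac15, H4c14, Ccne2 and H4c6) no longer met the margins once each array was centred on its median. Without 7-day replicate 1, 7 of the 11 stayed in the group, and 4 of the 6 histone genes (H4c3, H2ac15, H4c14 and H4c6) did not. Without 7-day replicate 3, 7 of the 11 stayed in, and Pole4, Zfp367, Pola1 and H4c14 did not. The newborn arrays mattered as well. Without 24-hour replicate 1, Ccne2, Pola1, H2ac15, H4c14, H4c3 and H4c6 left the group. Without 24-hour replicate 2, Ccne2, Zfp367, H2ac15, H4c14 and H4c6 did, whereas all 11 stayed in without 24-hour replicate 3.

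Genes of atrial and other heart muscle cells numbered 7. Sbk2 and Sbk3 encode related kinases and lie next to each other on chromosome 7 (GRCm38). Sbk3 measured 5.50, 5.08 and 4.92 at 24 hours, 6.47, 7.68 and 6.49 at 7 days and 4.90, 5.57 and 5.44 at 10 weeks, with replicate 2 highest at 7 days. Its adult and newborn levels did not differ detectably (adjusted p = 0.758). Sbk2 measured 5.97, 5.77 and 5.48 at 24 hours, 6.15, 6.82 and 6.34 at 7 days and 5.21, 5.40 and 5.11 at 10 weeks. Sln, which encodes sarcolipin, an inhibitor of the calcium pump in atria, measured 6.23, 6.09 and 5.64 at 24 hours, 6.45, 7.06 and 6.72 at 7 days and 4.88, 5.74 and 5.23 at 10 weeks. Mybphl, an atrial protein like myosin-binding protein H, measured 7.13, 6.83 and 6.12 at 24 hours, 7.20, 7.99 and 7.21 at 7 days and 4.6, 6.17 and 5.41 at 10 weeks. Fgf12, an intracellular partner of sodium channels, measured 6.59, 6.66 and 6.05 at 24 hours, 7.04, 7.49 and 7.05 at 7 days and 3.96, 5.22 and 4.75 at 10 weeks. In the adult Sln, Mybphl, Fgf12, Kcne1 and Sbk3 were lowest on replicate 1 and highest on replicate 2. With replicate 1 as the only 7-day array, Sln, Sbk2 and Nmrk2 no longer met the rule.

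Adult levels were below newborn ones for Fgf12 (-1.79 ± 0.28 SE, adjusted p = 4.64e-04), Kcne1, Mybphl, Sln and Sbk2. The calls of Mybphl (adjusted p = 0.0198), Sln (0.0318) and Sbk2 (0.039) were each lost without 24-hour replicate 1, 24-hour replicate 2 or 10-week replicate 1. Without 10-week replicate 1 the differences were -0.90, -0.50 and -0.49 in that order, and Sln and Sbk2 also missed without 10-week replicate 3 and Sbk2 without 7-day replicate 3. Myl7 and Myl4, atrial light chains, were uneven across the same adult arrays: Myl7 measured 10.86, 10.71 and 10.27 at 24 hours, 10.76, 11.37 and 10.98 at 7 days and 4.70, 8.43 and 7.52 at 10 weeks, and Myl4 6.43, 9.77 and 8.83 at 10 weeks. Not all atrial genes had this order on the adult arrays. Stard10 kept it with small differences (8.84, 8.97 and 8.92). Nppa (12.49, 12.50 and 12.57) and Dkk3 (5.68, 6.70 and 6.89) were highest on replicate 3, and Bmp10 (4.42, 4.57 and 4.29) was lowest there. Of 10 atrial genes, the members Sln and Fgf12 included, 8 were lower at 10 weeks than at 24 hours (20.6% of all genes). The 10 had a summed signal of 12067 to 15534 at 24 hours, 13637 to 16315 at 7 days and 6571 to 7862 at 10 weeks. How much atrium each array held was not measured, and its part in these differences was not tested. Nmrk2, a kinase of the NAD salvage pathway in muscle, measured 6.38, 6.57 and 6.56 at 24 hours, 6.85, 6.75 and 7.52 at 7 days and 6.68, 6.15 and 6.69 at 10 weeks. Its peak rests on replicate 3, and it left the group without 7-day replicate 3. Of 29 ventricular and general heart muscle genes 0 were members. The group holds 0.502% of all genes, so a list of this size would hold few or none, and nothing is read from this count.

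The 3 red cell members were all lower in the adult than in the newborn, and Alas2 and Tent5c were uneven between the adult arrays. Alas2 measured 8.10, 7.51 and 8.39 at 24 hours, 8.54, 8.64 and 9.07 at 7 days and 4.56, 7.12 and 4.25 at 10 weeks. Adult replicate 2 stood far above the other adult arrays, and the adult was below the newborn (difference -2.69 ± 0.60 SE, adjusted p = 0.00452). Bpgm, which makes the red cell's oxygen-release regulator, measured 7.78, 7.56 and 8.0 at 24 hours, 8.33, 8.31 and 8.72 at 7 days and 7.16, 7.39 and 7.01 at 10 weeks (difference -0.59 ± 0.14 SE, adjusted p = 0.00668). Tent5c, a poly(A) polymerase, measured 7.43, 6.78 and 7.51 at 24 hours, 8.09, 8.21 and 8.54 at 7 days and 4.93, 6.07 and 4.68 at 10 weeks, with adult replicate 2 again highest. The erythroid marker list had 7 measured genes, with Alas2 as the only member. At 7 days 1 was higher and 0 lower than at 24 hours (5.27% and 4.81% of all genes). From 24 hours to 10 weeks 5 were lower (20.6% of all genes). The list's summed signal was 876 to 1152 at 24 hours, 1306 to 1576 at 7 days and 303 to 449 at 10 weeks. This sum includes Alas2, so it is no separate measure of red cells. The part of red cells in the members' values was not tested. The erythrocyte anion exchanger Slc4a1 had means of 6.92, 7.31 and 5.65.

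Ucp1 had the greatest peak height of the group and the least agreement among its arrays. Ucp1 makes the heat-producing uncoupling protein of brown fat, and its signals were 4.17, 4.27 and 4.09 at 24 hours, 4.30, 11.23 and 9.27 at 7 days and 3.92, 4.23 and 4.11 at 10 weeks. Replicate 1 at 7 days was 0.035 above the highest other array, and replicates 2 and 3 were 4.9 log2 units or more above it. Cidea, a lipid droplet protein of brown fat, measured 7.64, 7.73 and 7.86 at 24 hours, 7.99, 9.67 and 8.34 at 7 days and 7.91, 7.94 and 7.79 at 10 weeks, with replicate 2 far above the rest. Without 7-day replicates 2 and 3 neither belonged to the group. The same arrays were high in fat genes: the list of 20 fat cell and lipid storage genes summed to 6408, 12289 and 7844 on the 7-day replicates in order, to 5990 to 6165 at 24 hours and to 10736 to 11430 at 10 weeks, and Plin1, the coat protein of fat droplets, measured 4.68, 7.48 and 5.58. Of 12 brown fat markers Ucp1 and Cidea were the members. The list summed to 13903, 15906 and 14034 on the 7-day arrays, 10442 to 11468 at 24 hours and 15091 to 16988 at 10 weeks. These sums include the 2 members, so they are no separate measure of brown fat. Among the other markers Cox8b measured 11.44, 11.19 and 11.34 on the 7-day arrays and Cox7a1 11.25, 11.16 and 11.24, both lowest on replicate 2. Otop1 (4.69, 5.25 and 4.77) and Kng2 (3.88, 4.65 and 3.94) were highest there. The part of fat tissue in these values was not tested.

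The 7-day arrays differed from each other in the members. Because a high 7-day mean was demanded, genes raised on a single 7-day array were more easily chosen, so the spread and the highest replicate are a description and nothing is read from the values over all genes. The median SD of a member was 0.205 at 7 days, beside 0.07 over all genes. It was 0.12 at 24 hours and 0.15 at 10 weeks, beside 0.068 and 0.100 over all genes. Replicate 2 gave the highest 7-day value for 54 of the 100 members, beside 30.5% of all genes. Among the secreted and matrix proteins it did so for 17 of 21, in the glycan set for 5 of 6 and in the atrial and cardiomyocyte set for 5 of 7. In the vessel set and in the histone and S phase set it was highest for 0 of 7 and 0 of 11. The median excess of replicate 2 over the mean of replicates 1 and 3 was 0.36 for secreted and matrix proteins, 0.48 for atrial and cardiomyocyte genes, -0.08 for vessel genes and -0.18 for histone and S phase genes. The largest SDs at 7 days were those of Ucp1 (3.57), Eln (0.89), Cidea (0.89), Osr1 (0.83) and Pi15 (0.82). Osr1, a zinc-finger transcription factor of mesenchyme, measured 7.26, 7.12 and 6.32 at 24 hours, 7.98, 9.40 and 7.94 at 7 days and 6.25, 6.26 and 6.19 at 10 weeks. It did not pass between adult and newborn (adjusted p = 0.172), but did without 7-day replicate 2 (0.0264). Smooth muscle Myh11, which is not a member, measured 6.88, 8.42 and 7.45 at 7 days. Its list of 14 smooth muscle and pericyte markers summed to 7798, 9811 and 9125 on these arrays, but its genes differed. Rgs5 (10.29, 10.02 and 10.15) and Rgs4 (6.33, 6.28 and 6.42) were lowest on replicate 2, and Vtn (6.98, 6.98 and 7.19) was highest on replicate 3. The cause of this spread was not tested.

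**Figure D4:**
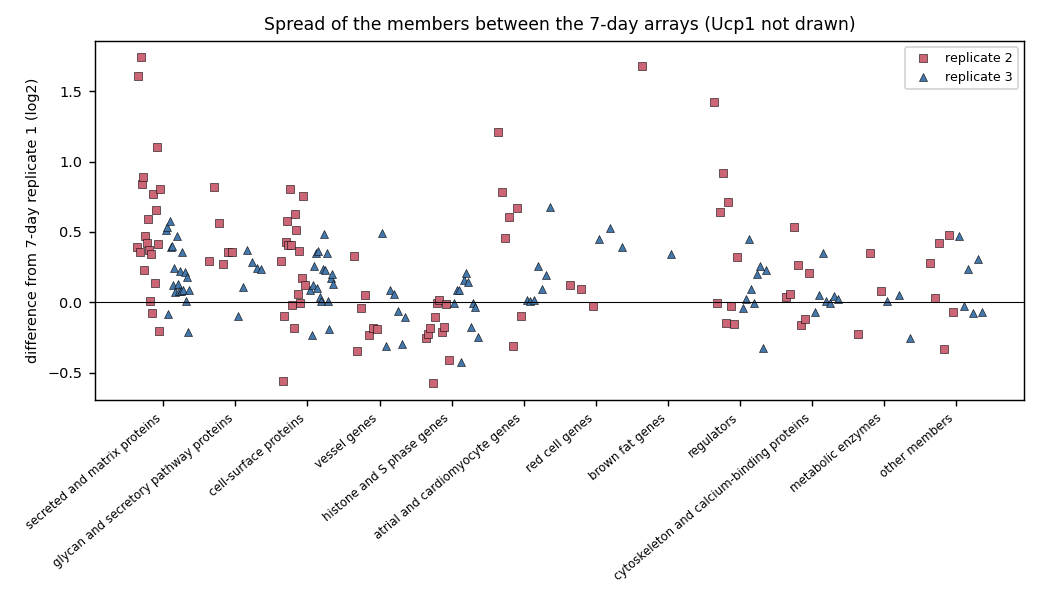
Difference of 7-day replicate 2 (squares) and replicate 3 (triangles) from 7-day replicate 1 (log2) for 99 members by kind of protein; Ucp1, at 6.92 and 4.96, is off the scale and not drawn. Replicate 2 lies mostly above the line for secreted, glycan and atrial genes and at or below it for most histone and S phase genes.

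With only replicate 1 left at 7 days, the rule would pick 96 genes, and 64 of the 100 would be among them. All 7 vessel genes and all 3 red cell genes stayed in, as did 9 of 11 histone and S phase genes, 14 of 21 secreted and matrix proteins and 9 of 18 cell-surface proteins. Fewer stayed in among the glycan and secretory pathway proteins (2 of 6), the regulators (4 of 9), the atrial and cardiomyocyte genes (4 of 7) and the brown fat genes (0 of 2). Of the remaining kinds 6 of 7 cytoskeletal or calcium-binding proteins, 2 of 3 metabolic enzymes and 4 of 6 others stayed in. The 7 matrix and secreted genes that fell out were Eln, Cpz, Cpxm1, Lrrc17, Sfrp2, Thbs2 and Podn. Without replicate 2 alone 80 of the 100 stayed in, and without replicate 1 alone 92.

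Of the 3 metabolic enzymes, Aldh1a2 is the one that makes retinoic acid. This enzyme of epicardium and stromal cells measured 7.59, 7.49 and 7.70 at 24 hours, 8.73, 8.50 and 8.74 at 7 days and 6.47, 6.43 and 6.69 at 10 weeks. The adult was below the newborn (difference -1.06 ± 0.09 SE, adjusted p = 6.12e-06), and its SD at 7 days was 0.13. Of 22 thyroid hormone and retinoid response genes it was the only member. In the list of 12 epicardial and mesothelial markers it was the only member. At 7 days 1 was higher, Aldh1a2 itself, and 1 lower, Tbx18, than at 24 hours (5.27% and 4.81% of all genes). The median difference of the list between these ages was -0.12. The list's summed signal, Aldh1a2 included, was 1353 to 1709 at 24 hours, 1461 to 1787 at 7 days and 645 to 782 at 10 weeks. This sum holds the member's own rise, so it is no separate measure of these cells. Gatm, of creatine synthesis, and Nnmt, a methyltransferase of nicotinamide, did not pass between the outer ages (adjusted p = 0.367 and 0.594).

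Nrep was nearly as tight at 7 days as any member. It measured 9.74, 9.57 and 9.83 at 24 hours, 10.57, 10.57 and 10.60 at 7 days and 7.14, 6.80 and 7.30 at 10 weeks, and its adult arrays were over 2 log2 units below the newborn ones. Tubb4a, a beta-tubulin isotype best known from the nervous system, measured 6.00, 6.08 and 5.93 at 24 hours, 7.25, 7.29 and 7.19 at 7 days and 5.82, 5.88 and 5.59 at 10 weeks, and the adult lay slightly below the newborn (-0.24 ± 0.08 SE, adjusted p = 0.0381). That call was lost without 24-hour replicate 1 or 2, 7-day replicate 1 or 3, or 10-week replicate 3 (adjusted p = 0.0528 to 0.133), and with either rescaling of the arrays. Lsp1, an actin-binding protein of white blood cells, measured 7.95, 7.75 and 7.99 at 24 hours, 9.06, 9.12 and 9.11 at 7 days and 8.18, 8.07 and 7.97 at 10 weeks, and did not pass (adjusted p = 0.0912), except with the arrays centred (0.0482), quantile normalized (0.0411) or without 10-week replicate 3 (0.0412). Tppp3, which promotes tubulin assembly, had 7.87, 8.4 and 8.21 at 7 days against 6.74 to 7.31 at the other ages. S100a10 and S100a16, small calcium-binding proteins, and Pls3, an actin bundler, also returned to within 0.12 of the newborn mean, and Plekhh2 to within 0.16. S100a16 passed as higher when quantile normalized (adjusted p = 0.0466), and none of these 4 passed with the values as deposited.

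The regulators other than Osr1, Nrep and Zeb2 were Sertad4, Map3k7cl, Rab31, Pmepa1, Rgs2 and Carhsp1. Pmepa1, an inhibitor of TGF-beta signalling, measured 7.79, 7.97 and 7.88 at 24 hours, 8.24, 8.96 and 8.44 at 7 days and 7.88, 7.92 and 8.06 at 10 weeks, and Rgs2, which shuts off G protein signals, 7.00, 7.03 and 7.40 at 24 hours, 7.69, 7.67 and 7.95 at 7 days and 7.65, 6.87 and 7.18 at 10 weeks. Adult replicate 1 of Rgs2 lay 0.014 under its lowest 7-day array. Rab31, a vesicle traffic GTPase, was lower in the adult (-0.32 ± 0.07 SE, adjusted p = 0.00267). Sertad4 (adjusted p = 0.0329) and Carhsp1 (adjusted p = 0.0455) passed as lower too. Sertad4 missed without any 1 of the 24-hour arrays or 10-week replicate 1 or 2 (adjusted p = 0.0685 to 0.11). Carhsp1 missed without any 1 of the arrays except 10-week replicate 2 (adjusted p = 0.0525 to 0.133), and with the arrays centred (0.0564) or quantile normalized (0.113). Sertad4 also missed when quantile normalized (0.0691). Carhsp1 was the only member with another feature of its own symbol, which also had its highest mean at 7 days (7.34, 7.68 and 6.75).

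Of the other members, Mlana encodes a protein of pigment cell melanosomes and measured 5.90, 5.91 and 5.53 at 24 hours, 6.70, 6.97 and 7.16 at 7 days and 5.26, 5.22 and 5.45 at 10 weeks. Its adult level was below the newborn one (-0.47 ± 0.13 SE, adjusted p = 0.0165), but the call was lost without 24-hour replicate 1 or 2 or 10-week replicate 1 or 2 (adjusted p = 0.0542 to 0.0679). Samd5 and Niban1 were lower in the adult too (-0.73 and -0.49). BC028528 and Scrn1 did not pass, and 4631405J19Rik, the long non-coding RNA, had 6.68, 6.71 and 6.65 at 7 days. At a share of 0.502% of all genes, lists of this size would hold 0 or 1 member, and the remaining lists of other cell types held none: 0 of 18 macrophage markers, 0 of 14 neutrophil markers, 0 of 13 lymphocyte markers, 0 of 8 mast cell markers, 0 of 14 smooth muscle and pericyte markers, 0 of 17 skeletal muscle markers, 0 of 11 lung and 0 of 13 liver genes. Of the macrophage markers 11 were higher at 7 days than at 24 hours (5.27% of all genes), but 15 were higher at 10 weeks than at 7 days (17% of all genes). Their summed signal was 2190 to 2346 at 7 days and 4221 to 4641 at 10 weeks. Of 16 glia and nerve markers Pmp22 and of 20 cartilage, valve and tendon genes Matn2 was a member.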

How the data were processed

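RNA of 9 heart samples, 3 per age, was read on Affymetrix Mouse Gene 1.0 ST arrays. The deposited values are log2 signals, 1 per feature and array (1.853 to 13.583); the log base was read from their range. The submitters' processing notes name MAS5 5.0; how probes were summarised or normalized is not given in the sources consulted. Values were used as deposited. Of 35556 features 21789 have 1 symbol in the platform table, 21698 of them matched by Entrez id to current symbols; the feature with the highest mean stood for each of 19938 genes. For each gene limma 3.58.1 estimated the 3 age means from the 9 arrays in 1 linear model (R 4.3.3; lmFit, eBayes with trend; 6 residual degrees of freedom), with Benjamini-Hochberg adjustment over all genes and calls at an adjusted p under 0.05. The fit was tested on simulated data. Alternatives were other scalings (array medians, quantiles), the mean of a gene's features, other variance settings, no dim genes, only the 6 arrays compared, the replicate block, other margins and leaving out arrays. Tables were made with Python 3.11.15 and pandas 2.3.3. The members, the 30 gene lists and the tests were chosen with earlier results of these data known. The genes described are the members; those named outside the rule for named genes (the 25 members with the largest peak height, up to 5 members of each list, the 8 largest rises and 8 largest falls from 24 hours to 10 weeks among genes that passed, the 5 largest and 5 smallest SDs at 7 days, the 4 genes on either side of each threshold, and up to 4 other genes of each list with the largest difference between 7 days and 24 hours) were chosen after their values were seen. An array has no read depth; 3 arrays per age limit the precision.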

Additional observations from a re-analysis of the deposited data

How the results depend on the processing

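The counts of members lower at 10 weeks than at 24 hours ran from 45 to 53 over all alternatives, and those of higher members from 3 to 9; leaving out 1 array gave 45 to 53 and 3 to 7. With the replicate number as a block 5 were higher and 53 lower (adjusted p = 0.0537 for 4631405J19Rik, 0.0558 for Pdgfrl and 0.0468 for Fam111a). Deviations of same-numbered arrays from their age means had correlations of -0.174 to 0.133 over all genes. With 3 arrays per age these correlations cannot show whether the numbers mark samples that were handled together. The number of genes picked by the rule was 84 with each array centred on its median and 93 after quantile normalization, of which 89 were shared with the 100. It was 95 to 148 without 1 array, the highest without 7-day replicate 1, and 17 with a margin of 1. Of the 58 members under the rule for named genes 14 changed their call under at least 1 alternative, none with a turned direction. Calls also changed for members outside that rule: Carhsp1, Cd34, Fam111a, Mybphl, S100a16, Sbk2 and Sertad4. The causes were not tested. The values carry no detection flags, so signal over background could not be used to limit them.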
